A study of Mus musculus with 48 samples.

Results

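The genes described here carry mouse Eif symbols, and their levels were followed hour by hour in NIH3T3 cells, an established fibroblast line. Most encode translation initiation factors or their subunits, and others encode kinases, binding proteins and relatives of these factors. All are called initiation factor genes below. A member was any gene with a probe set whose only platform symbol was Eif followed by a number, and each gene was read from its brightest probe set, the one with the highest mean log2 intensity. This gave 47 genes on 133 probe sets, of 18193 genes and 45037 probe sets in all. Eif1, Eif2s1, Eif3g, Eif3j and Eif4g1 had no such probe set, so the factor groups are incomplete. The cells were grown to confluence, synchronized with forskolin, which raises cyclic AMP and brings the clocks of the cells into step, and collected every hour from hour 20 to hour 67 on 48 Affymetrix arrays. No untreated or unsynchronized culture was analysed here, so the comparison was between the second cycle, hours 44 to 67, and the first cycle, hours 20 to 43, with 24 arrays each. There was 1 array per hour and no replicate, every ± below is a standard error of a fit over the arrays, and neighbouring hours are not separate replicates. Each array read the RNA of a whole dish, so a lower level in every cell and a level lost from part of the cells cannot be told apart.

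Initiation is the step at which a ribosome is placed on the start codon of an mRNA. eIF2 carries the initiator tRNA and GTP to the small subunit, hydrolyses the GTP when eIF5 triggers it, and is recharged by eIF2B. eIF1, eIF1A and eIF3 hold the subunit open for scanning, and the eIF4 proteins bind the cap and unwind the leader. The step is slowed when kinases phosphorylate eIF2 or when 4E-binding proteins occupy the cap-binding protein, and it is one of the main routes by which a cell matches protein synthesis to nutrients, stress and growth.

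Arrays were of uneven quality. The gap between the 3′ and 5′ probe sets of β-actin (log2), which widens when RNA is shorter, was over 1.4 on 10 arrays, hours 45, 46 and 67 in the second cycle and 7 hours in the first, against a median of 1.13, and the BioB spike-in was 0.90 higher at hours 52 to 55 than elsewhere. All 10 fibroblast markers lay above the median of all probe sets (6.67), while 0 of 5 endothelial, 0 of 5 epithelial, 0 of 5 muscle, 1 of 5 macrophage (Cd68, 10.4), 1 of 3 adipocyte (Fabp4, 15.8) and 2 of 5 neuron markers (Snap25, 15.1, and Map2, 7.61) did. Of the initiation factor genes, 45 of 47 lay above that median, with means between 12.7 for Eif5a2 and 18.5 for Eif3h. The exceptions were Eif4a3, the helicase of the exon junction complex, and Eif4e3, a relative of the cap-binding protein, whose mean log2 values of 5.53 and 5.42 were at the floor of the arrays on the probe sets used.

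**Figure D1:**
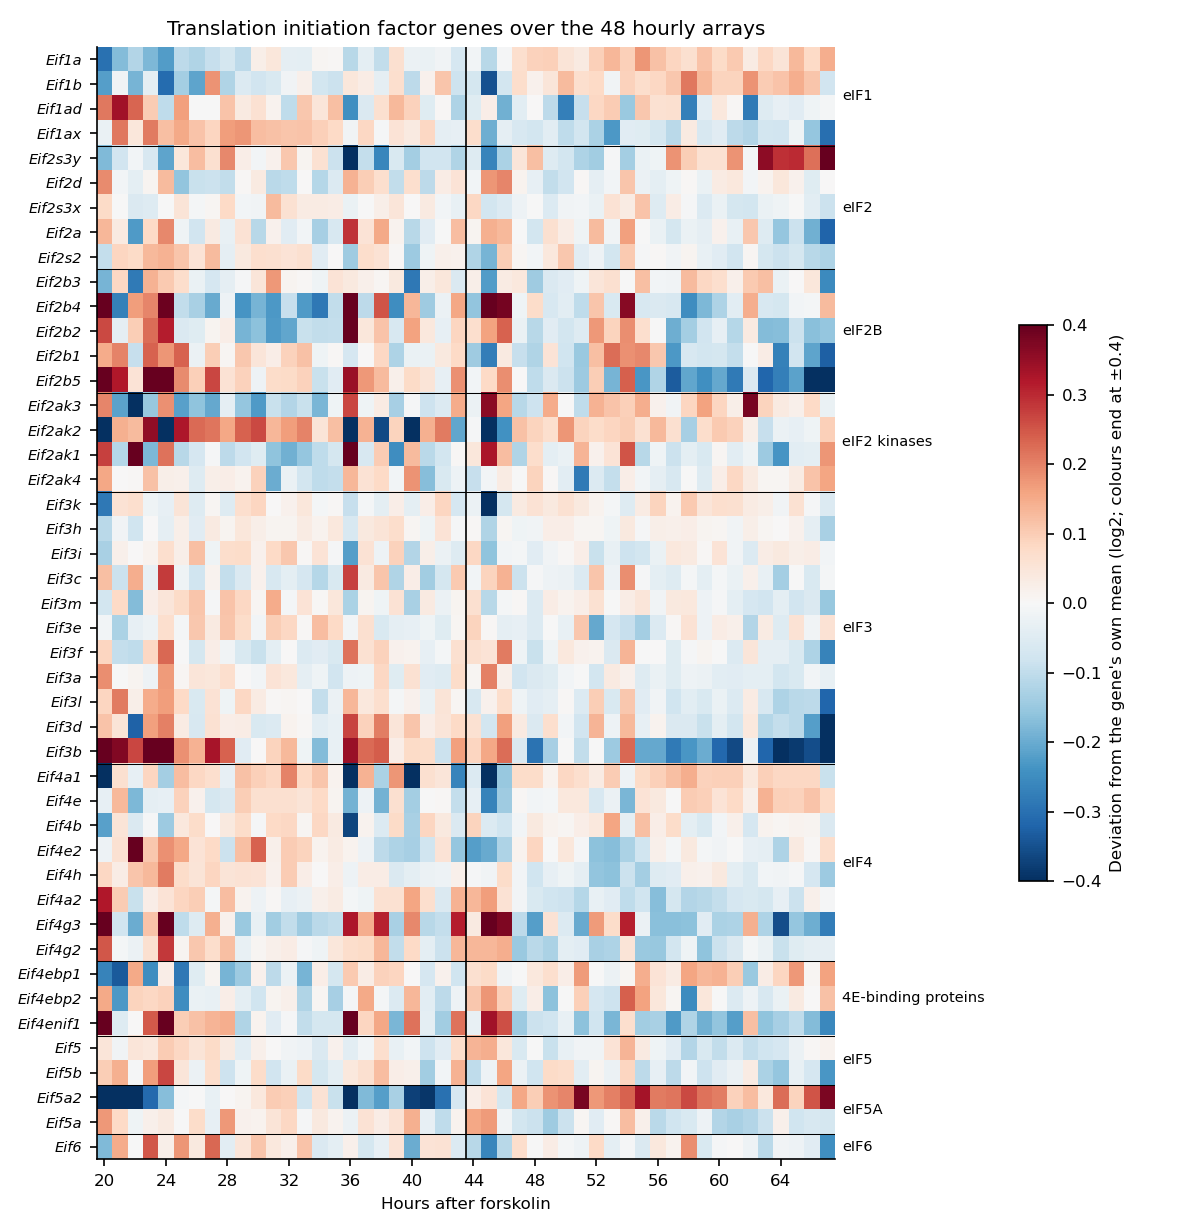
Deviation of each of the 45 initiation factor genes above the median from its own mean (log2, colour) by hour after forskolin, ordered by factor group and by slope within a group. The vertical line separates hours 44 to 67 from hours 20 to 43. Eif5a2 and Eif1a turn from blue to red, and Eif3b, Eif2b5 and Eif1ax from red to blue.

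The first question, the one the time course was collected for, was which of these transcripts cycled with a period of about 24 h. Eif5a2, the less widely expressed of the 2 genes for eIF5A, a factor that helps ribosomes past difficult peptide bonds, had a clear wave. Its fitted amplitude (log2, mean to peak) was 0.21 ± 0.03, with a peak at hour 28.2 ± 0.48 and a peak-to-trough ratio of 1.34. Eif4a2, one of the genes for the helicase of the cap-binding complex, and Eif1a, a gene for eIF1A, passed the same test with amplitudes of 0.06 ± 0.01 and 0.05 ± 0.01. These were 3 of 47 genes in limma's moderated F-test for a cosine of 24 h at an adjusted p of 0.05, a test that 0.293% of all probe sets and 0.586% of those above the median passed. Of 12 core clock genes 9 passed it, as did 3 of 42 cytosolic ribosomal protein genes. The median amplitude was 0.04 for the 47 initiation factor genes, 0.01 for the ribosomal protein genes and 0.59 for the clock genes.

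The wave of Eif5a2 was read on its 6 h means. They were 12.41 at hours 20 to 25, 12.77 at hours 26 to 31, 12.60 at hours 32 to 37 and 12.50 at hours 38 to 43, then 12.82, 13.0002, 12.95 and 12.93 over the blocks of the second cycle. The level thus crested in the first cycle at hours 26 to 31 and in the second at hours 50 to 55, and did not return to its earlier trough. The crest blocks and hours 56 to 61 held no array of wide β-actin gap, while all other blocks did. The adjusted p of the cosine was 1.1e-05, and the best-fitting period on the detrended series was 22.7 h (R2 = 0.608). The amplitude was 0.16 in hours 44 to 67 and 0.30 in hours 20 to 43, and the cosine differed between the windows (adjusted p = 0.0119), a test that 49.0% of all probe sets and 21.7% of those above the median passed. The second Eif5a2 probe set had 6 h means of 8.76, 9.15, 9.03, 8.80, 8.76, 9.33, 9.01 and 9.03 and passed the 24 h test with an amplitude of 0.31 and a peak at hour 29.1 (adjusted p = 0.0366). Its lowest values in the windows, 7.46 at hour 20 and 7.86 at hour 45, were on arrays of wide β-actin gap. Whether this probe set passes without such arrays was not examined.

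Eif5a2 was 0.29 lower on the 10 arrays of wide β-actin gap (12.52) than on the other 38 (12.81), and its lowest array, hour 36, was one of them. Without these 10 arrays its amplitude was 0.18 (adjusted p = 6.8e-06), and with the β-actin gap as a further term it was 0.19 (adjusted p = 2.68e-05). The waves of the other genes were smaller and less secure. Eif4a2 peaked at hour 42.5 ± 0.85 (adjusted p = 0.0363) and no longer passed without the 10 arrays (0.162) or with the further term (0.138). Eif1a peaked at hour 30.3 ± 0.87 (adjusted p = 0.0442) and lost its call under the same settings (0.261 and 0.171). With single arrays left out in turn, Eif1a lost its call in 27 of 48 fits and Eif4a2 in 16, and leaving out any 1 of hours 20, 30, 31, 32, 33, 34, 43, 45, 46, 56 and 66 left 1 gene past the test.

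**Figure D2:**
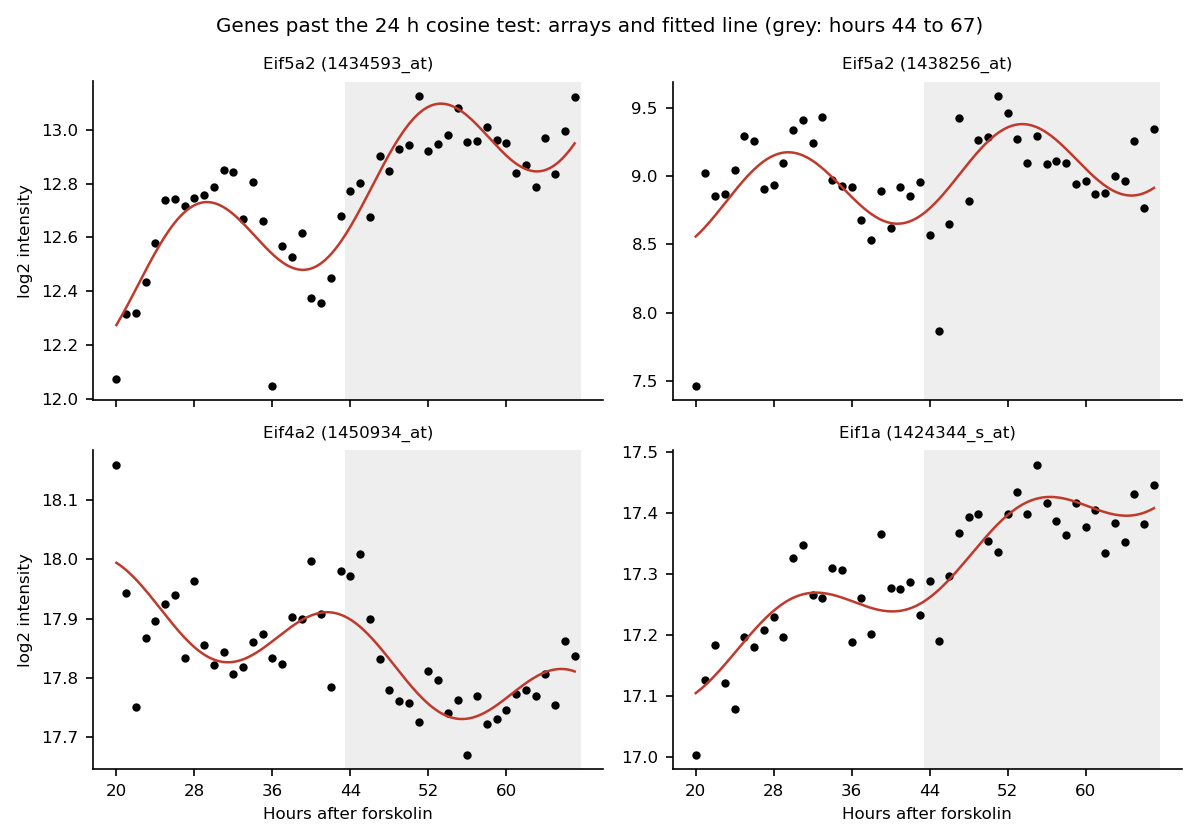
Log2 intensity against hours after forskolin for the 2 probe sets of Eif5a2 and for the brightest probe sets of Eif4a2 and Eif1a. Points are single arrays, the line is the fitted 24 h cosine with a linear trend, and grey marks hours 44 to 67. Eif5a2 crests in each window on both probe sets, only slightly in hours 44 to 67 on the brightest one. The amplitudes of Eif4a2 and Eif1a, 0.06 and 0.05, are close to the scatter of the arrays.

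On its brightest probe set none of the 47 genes was called at about 24, 12 or 8 h by both of the study's kinds of rhythm test together, a best-fitting cosine and Fisher's G-test, each at a Storey q of 0.05. Over all probe sets 0.198% were called at 24 h, 0% at 12 h and 0.0178% at 8 h. At an unadjusted p of 0.05, 7 genes (14.9%) passed the cosine and 15 (31.9%) the G-test, against 12.9% and 54.0% of all probe sets. Eif5a2, Eif4a2 and Eif1a had cosine q-values of 0.000428, 0.0457 and 0.0222, but the G-test, which was run without removal of the trend, put their main period at 48 h, the length of the course. The dimmer probe set of Eif5a2 was called at about 24 h by both tests (cosine q = 0.0468, G-test q = 0.0183, main period 24 h). Where the G-test could peak at any period, Eif5a2, Eif4a2 and Eif1a were the 3 genes called at about 24 h.

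The promoter of Eif5a2 is shown because its gene had the largest 24 h wave of the group. The 250 bases before its RefSeq start (GRCm38.p6, chr3:28781027-28781276, plus strand) are 68.4% G and C and hold a pair of E-boxes, in capitals, the CACGTG sequence read by the clock proteins CLOCK and BMAL1 and also by MYC and USF.
Eif5a2: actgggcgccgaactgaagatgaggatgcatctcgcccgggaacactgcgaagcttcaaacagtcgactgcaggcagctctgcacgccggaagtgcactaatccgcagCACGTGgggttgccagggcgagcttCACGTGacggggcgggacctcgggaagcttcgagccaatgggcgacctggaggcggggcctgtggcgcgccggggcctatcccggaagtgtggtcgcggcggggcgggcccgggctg

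Of the 47 genes, 38 had a RefSeq promoter (250 bases before the start to 50 after), 51 windows in all, some of them overlapping starts of 1 gene. CACGTG, which reads alike on both strands, was in 11 of the 51 windows (21.6%), against 2349 of 32851 windows of the same length (7.15%), and these belonged to 9 genes. The E-boxes of the other 8 genes are shown with 10 bases on either side, with CACGTG in capitals, so that they can be set beside those of Eif5a2.
Eif1b (chr9:120492572-120492597, plus strand): tgcggacggtCACGTGgcggcggcgc
Eif3a (chr19:60790656-60790681, minus strand): gcgagggaatCACGTGgttccttcct
Eif3f (chr7:108934337-108934362, plus strand): agatatgattCACGTGgtataaattt
Eif3k (chr7:28981917-28981942, minus strand): ggaaggaaatCACGTGgtagacaaaa
Eif4a1 (chr11:69672597-69672622, minus strand): atcgcctccgCACGTGtaaaggtgct
Eif4e (chr3:138527030-138527055, plus strand): cgccagcgacCACGTGatcacttttt
Eif4e (chr3:138527194-138527219, plus strand): acacgtccgtCACGTGggcaggagcc
Eif4h (chr5:134639490-134639515, minus strand): gccgccgcacCACGTGggccgcagag
Eif5a (chr11:69920793-69920818, minus strand): gctgcgcggcCACGTGaggtggggga
Eif5a (chr11:69921445-69921470, minus strand): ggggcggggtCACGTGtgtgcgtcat

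Of these 9 genes only Eif5a2 passed the 24 h test. The promoters of the group held no D-box (TTATGTAA or TTACGTAA, 1.06% of all windows), no ROR element core (TAGGTCA or TGGGTCA, 6.45%) and no full cyclic AMP response element (TGACGTCA, 1.79%) on either strand. An ATF4-type element (TGATGNAA, 3.97%) was found in 1 window, that of Eif2s3x. No match of 1 motif overlapped a match of another in these windows, and a match is a description of the sequence, not a binding site.

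The second question was how the initiation factors drifted over the 2 cycles. The slope of each gene (log2 per 24 h) was tested in the same limma model as the cosine. Of the 47 genes 6 rose and 16 fell. Over all probe sets 14.2% rose and 16.2% fell, and above the median 26.4% rose and 26.4% fell. The median slope was -0.03 for the 47 genes, 0.00 for all probe sets and 0.00 for those above the median. Slopes were below 0 for 32 of the 47 genes (68.1%), against 69.7% of all probe sets and 50.0% of those above the median. Between the windows 5 genes were higher and 14 lower in hours 44 to 67, against 12.6% and 13.8% of all probe sets and 23.6% and 22.9% of those above the median. The window test used the same arrays as the slope and is no second support for it.

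**Figure D3:**
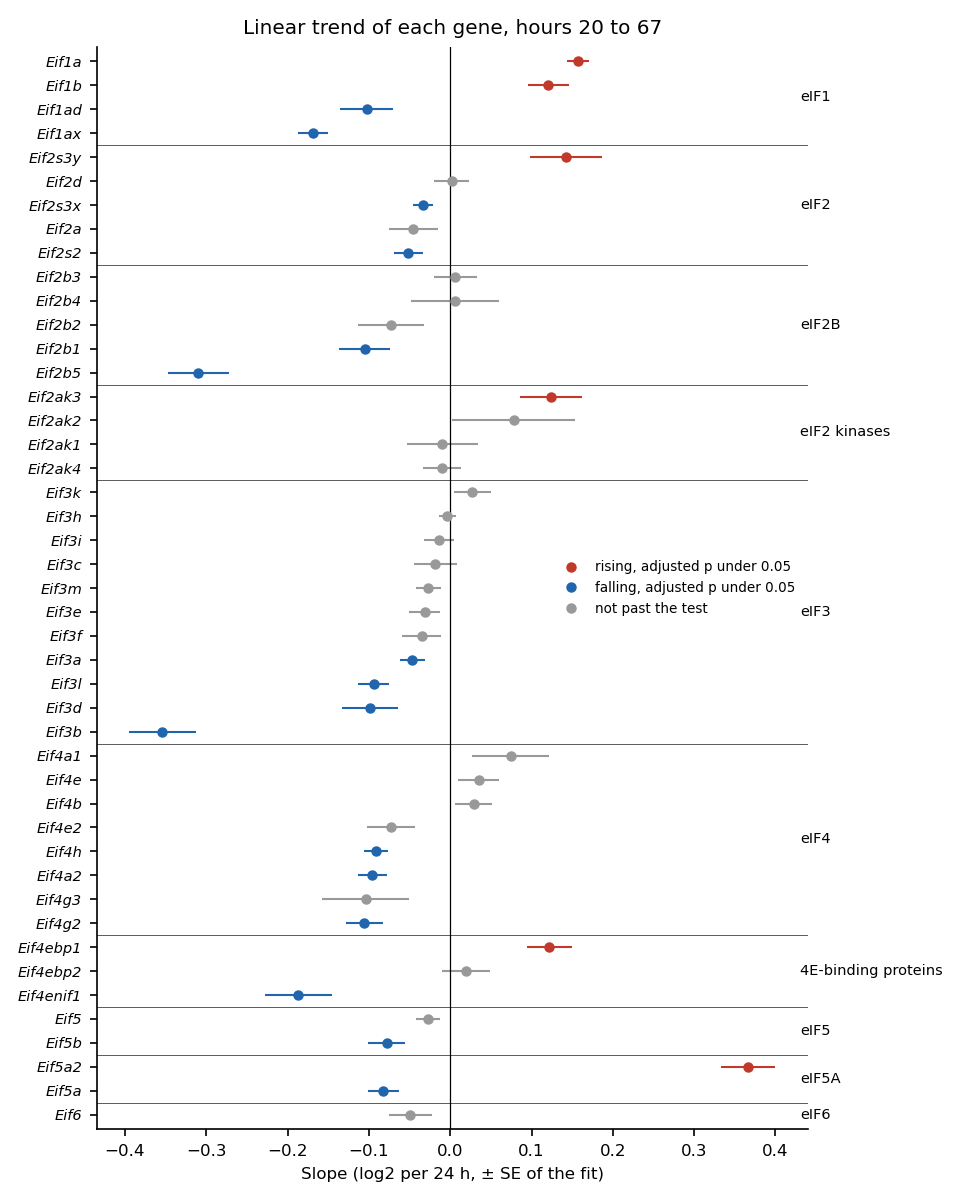
Slope of each of the 45 initiation factor genes above the median (log2 per 24 h, bars are standard errors of the fit), by factor group. Red genes rose and blue genes fell past the trend test, and grey genes did not pass it. The 6 rising genes lie in the eIF1, eIF2, eIF2 kinase, 4E-binding and eIF5A groups, and 10 of the 11 eIF3 slopes are below 0, as are 69.7% of the slopes of all probe sets and 50.0% of those above the median.

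In the group of eIF1 and eIF1A, which keep the small subunit scanning and guard the choice of start codon, 2 genes rose and 2 fell. Eif1a measured 17.19, 17.39 and 17.48 (lowest, median and highest log2 intensity) in hours 44 to 67, against 17.004, 17.23 and 17.36 in hours 20 to 43. In 16 of the 24 later hours it exceeded every earlier hour. Its slope was 0.16 ± 0.01 and its difference between windows 0.15 ± 0.02 (adjusted p = 1.5e-13 and 3.44e-09), and its second probe set also rose (slope 0.14).

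Eif1ax, the copy of eIF1A on the X chromosome, measured 16.48, 16.72 and 16.86 in hours 44 to 67, against 16.75, 16.88 and 17.0001 in hours 20 to 43. All 24 later hours lay below the earlier median, and 21 lay below every earlier hour. The slope was -0.17 ± 0.02 (adjusted p = 1.81e-10). This direction held for the brightest probe set only. The dimmest of its probe sets above the median rose (slope 0.17, adjusted p = 0.00681), another did not pass, and the average of all Eif1ax probe sets had a slope of 0.01 (adjusted p = 0.715).

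Eif1b, a close relative of eIF1, measured 16.09, 16.53 and 16.65 in hours 44 to 67, against 16.14, 16.39 and 16.62 in hours 20 to 43. Of the later hours 20 lay above the earlier median, with the low value at hour 45, an array of wide β-actin gap. Eif1b had a slope of 0.12 ± 0.03 (adjusted p = 0.000157). Eif1ad, named for its eIF1A domain, had a slope of -0.10 ± 0.03 (adjusted p = 0.0118) and no longer passed without hours 20 to 25 (0.244).

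**Figure D4:**
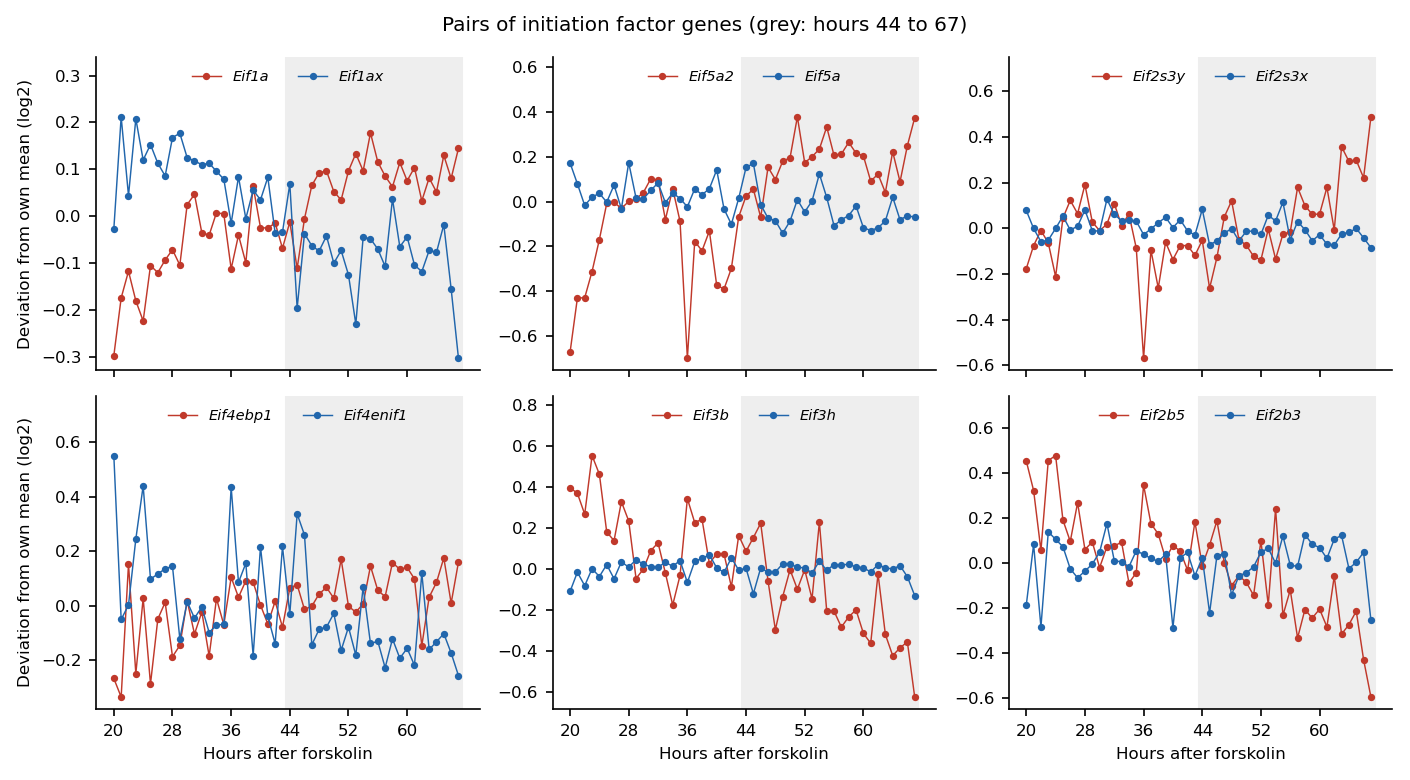
Deviation from the gene's own mean (log2) against hours after forskolin for 6 pairs of genes, with 1 point per array and hours 44 to 67 in grey. Eif1a, Eif5a2, Eif2s3y and Eif4ebp1 climb, while Eif1ax, Eif5a and Eif4enif1 decline, and Eif3b and Eif2b5 decline beside Eif3h and Eif2b3, whose slopes are 0.00 and 0.01.

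Among the genes of eIF2 and of factors that do related work, 1 rose and 2 fell. Eif2s3y, the Y-linked copy of the γ subunit, which binds GTP and the initiator tRNA, measured 14.97, 15.25 and 15.72 in hours 44 to 67, against 14.66, 15.17 and 15.42 in hours 20 to 43. Its 5 values above every earlier hour came at hours 63 to 67, and its lowest value was at hour 36, an array of wide β-actin gap. The slope was 0.14 ± 0.04 (adjusted p = 0.0102), the window difference did not pass (0.0722), and neither did the slope without the arrays of wide β-actin gap (0.06, adjusted p = 0.160). Eif2s3x, the X-linked copy, had a slope of -0.03 ± 0.01 (adjusted p = 0.0295), which did not pass without hour 20 (0.0869). Eif2s2, the β subunit, had a slope of -0.05 ± 0.02 (adjusted p = 0.0262), but a dimmer probe set rose by 0.06 per 24 h (adjusted p = 0.0376), and the average of its probe sets had a slope of 0.1001 (adjusted p = 0.120). That average includes a dim probe set with values from 5.59, near the floor, to 9.45. Its mean was 8.25 in hours 44 to 67 and 7.69 in hours 20 to 43. Of the 5 further Eif2s2 probe sets 2 had slopes below 0. Eif2a and Eif2d, which can bring initiator tRNA to ribosomes without eIF2, had slopes of -0.05 and 0.00 and did not pass. The other Eif2a probe set above the median fell.

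eIF2B, the exchange factor with 5 subunits that recharges eIF2 with GTP, had the largest fall outside eIF3. Eif2b5, its catalytic ε subunit, measured 14.37, 14.80 and 15.21 in hours 44 to 67, against 14.88, 15.06 and 15.45 in hours 20 to 43. In 15 later hours it lay below every earlier hour, and hour 67 was the lowest. The slope was -0.31 ± 0.04 (adjusted p = 3.1e-09), or -0.26 without the arrays of wide β-actin gap (adjusted p = 4.42e-07). Eif2b1, the α subunit, also fell (slope -0.11 ± 0.03, adjusted p = 0.00776), although not in the 6 h means (0.0809). Eif2b2, Eif2b3 and Eif2b4, for the β, γ and δ subunits, had slopes of -0.07, 0.01 and 0.01 and did not pass on their brightest probe sets. Of the 2 further Eif2b2 probe sets 1 fell by the trend test. Eif2b4 was 0.39 higher on the 10 arrays of wide β-actin gap than on the others.

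Of the 4 kinases that phosphorylate eIF2 and thereby block its recharging, Eif2ak3, which encodes PERK, the sensor of unfolded protein in the endoplasmic reticulum, rose. It measured 14.67, 14.86 and 15.16 in hours 44 to 67, against 14.33, 14.69 and 15.05 in hours 20 to 43, and 22 of the later hours lay above the earlier median. The slope was 0.12 ± 0.04 (adjusted p = 0.0103). Eif2ak1 (HRI, the heme-regulated kinase), Eif2ak2 (PKR, activated by double-stranded RNA) and Eif2ak4 (GCN2, activated by uncharged tRNA) had slopes of -0.01, 0.08 and -0.01 and did not pass. Eif2ak2 had the widest range of the group, 1.49, with its lowest value at hour 36, and it was 0.53 lower on the arrays of wide β-actin gap. A dimmer probe set of Eif2ak1 rose (slope 0.37, adjusted p = 4.31e-05).

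eIF3 is the large scaffold that joins the small subunit to the mRNA, and 11 of its genes were measured. None rose and 4 fell. Eif3b, a core subunit that binds the ribosome, measured 13.92, 14.34 and 14.77 in hours 44 to 67, against 14.36, 14.69 and 15.09 in hours 20 to 43. In 13 later hours it lay below every earlier hour, and its 6 h means fell to 14.27 and 14.19 over the last 12 h, against 14.91 over hours 20 to 25. The slope was -0.35 ± 0.04 (adjusted p = 9.89e-10), and the level in hours 44 to 67 was 0.80 times that in hours 20 to 43.

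The other falls in eIF3 were shallower. Eif3l had a slope of -0.09 ± 0.02 (adjusted p = 8.98e-05), and its second probe set fell as well. Eif3d, which can bind the cap of selected mRNAs, had a slope of -0.10 ± 0.03 (adjusted p = 0.0218) and was not lower by the window test (0.0806). Eif3a, the largest subunit, had a slope of -0.05 ± 0.02 (adjusted p = 0.0165), not past the test without hour 20 (0.0661), and 2 of its 3 further probe sets fell. Eif3c, Eif3e, Eif3f, Eif3h, Eif3i, Eif3k and Eif3m did not pass, with slopes between -0.04 and 0.03. Of the 3 further Eif3c probe sets 1 fell. Eif3h was the steadiest gene of the 45, with a range of 0.20 over the course.

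In the eIF4 group, which binds the cap and unwinds the leader, 3 of 10 genes fell and none rose. Eif4a2 measured 17.67, 17.77 and 18.01 in hours 44 to 67, against 17.75, 17.87 and 18.16 in hours 20 to 43. It lay below the earlier median in 21 later hours and had a slope of -0.10 ± 0.02 (adjusted p = 1.86e-05). Eif4h, a cofactor of the helicase, had a slope of -0.09 ± 0.01 (adjusted p = 1.95e-06), and its 3 further probe sets above the median fell too. Eif4g2, which encodes DAP5, an eIF4G relative that does not bind the cap protein, had a slope of -0.11 ± 0.02 (adjusted p = 0.000179). Its second-brightest probe set rose by 0.12 per 24 h (adjusted p = 4.34e-10), and the average of its probe sets had a slope of 0.03 (adjusted p = 0.215), so that no direction of the gene as a whole can be given.

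The cap-binding protein itself, Eif4e, had a slope of 0.04 ± 0.03 and did not pass on its brightest probe set, but its 2 other probe sets above the median rose, by 0.07 and 0.28 per 24 h. Eif4a1, the main helicase gene, had a slope of 0.07 ± 0.05 and did not pass, and its other probe sets fell by 0.11 and 0.05 per 24 h. It was 0.38 lower on the arrays of wide β-actin gap. Eif4e2, which encodes a cap-binding competitor of eIF4E, was lower in hours 44 to 67 on its brightest probe set by the window test alone (difference -0.08, adjusted p = 0.0391). It was not lower in 15 of the 48 fits with 1 array left out. By the same test a dimmer Eif4e2 probe set was higher (0.09, adjusted p = 0.0440) and another was lower (-0.22, adjusted p = 0.0240). The remaining one above the median did not pass (-0.05, adjusted p = 0.282). The probe set that was higher also rose by the trend test, by 0.10 per 24 h (adjusted p = 0.013). Eif4b, another helicase cofactor, and Eif4g3, a scaffold of the complex, had slopes of 0.03 and -0.10 and did not pass.

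The 4E-binding proteins, which hold eIF4E away from the scaffold, did not move together. Eif4ebp1, the classical mTORC1 target, measured 15.20, 15.41 and 15.52 in hours 44 to 67, against 15.01, 15.31 and 15.50 in hours 20 to 43. It exceeded the earlier median in 23 later hours and had a slope of 0.12 ± 0.03 (adjusted p = 0.000481), and a second probe set of nearly the same brightness rose by 0.18. Eif4enif1, which encodes the 4E transporter that draws eIF4E into the nucleus and into P-bodies, measured 13.65, 13.78 and 14.25 in hours 44 to 67, against 13.73, 13.96 and 14.46 in hours 20 to 43. Its slope was -0.19 ± 0.04 (adjusted p = 0.000322), and its high values in both windows were mostly on arrays of wide β-actin gap, where it was 0.30 higher. Eif4ebp2 had a slope of 0.02 ± 0.03 on its brightest probe set, while 3 dimmer ones rose, by 0.27, 1.07 and 1.31 per 24 h, the steepest of them from an array near the floor (5.47) in hours 20 to 43.

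**Figure D5:**
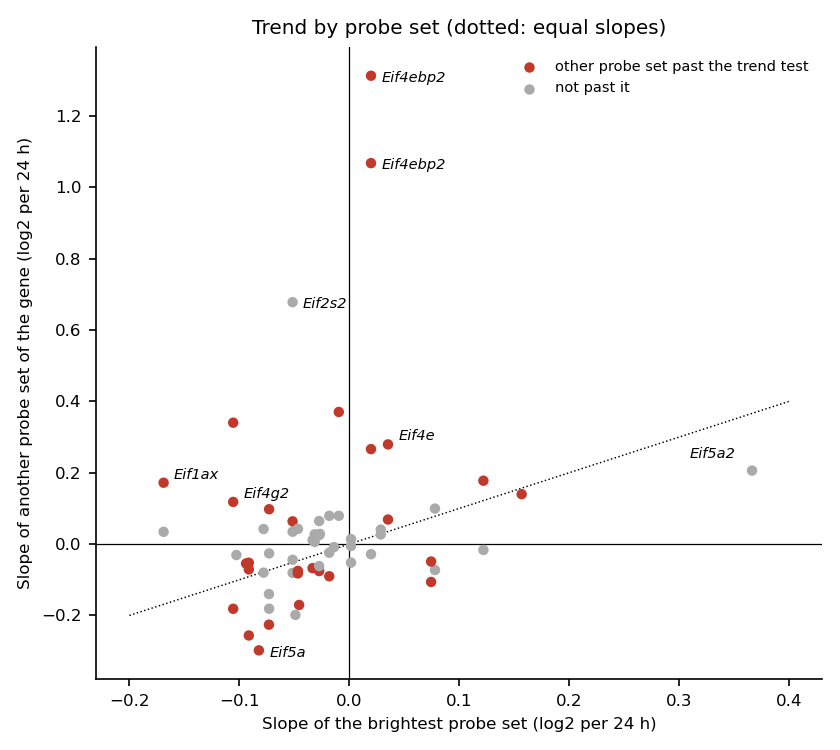
Slope of each further probe set above the median (log2 per 24 h, vertical) against the slope of the brightest probe set of the same gene (horizontal), 62 probe sets in all. Red points passed the trend test and the dotted line marks equal slopes. Points of Eif1ax, Eif4g2 and Eif2s2 lie across 0 from their brightest probe set, and those of Eif4ebp2 lie far above theirs.

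eIF5 triggers GTP hydrolysis on eIF2 and eIF5B joins the subunits. Eif5b had a slope of -0.08 ± 0.02 (adjusted p = 0.00587), which did not pass without the arrays of wide β-actin gap (0.0614), without hours 20 to 25 (0.111) or with its probe sets averaged (0.150). Eif5 had one of -0.03 ± 0.01, which did not pass, although a dimmer probe set fell by 0.08 per 24 h. For eIF5A the genes moved in opposite directions. Eif5a2 measured 12.68, 12.95 and 13.13 in hours 44 to 67, against 12.05, 12.64 and 12.85 in hours 20 to 43. All 24 later hours lay above the earlier median, and 17 above every earlier hour. The slope was 0.37 ± 0.03 (adjusted p = 1.23e-12), the steepest of the 47 genes in either direction, and the level in hours 44 to 67 was 1.28 times that in hours 20 to 43. On the 8 means of 6 h, which carry the wave as error, the slope was 0.29 and did not pass (adjusted p = 0.0547). The dimmer Eif5a2 probe set also had a slope above 0 but did not pass the trend test. Its mean was 9.03 in hours 44 to 67 and 8.93 in hours 20 to 43.

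Eif5a, the widely expressed gene, measured 18.13, 18.21 and 18.44 in hours 44 to 67, against 18.17, 18.30 and 18.45 in hours 20 to 43. It lay below the earlier median in 21 later hours and had a slope of -0.08 ± 0.02 (adjusted p = 0.000687). A dimmer probe set fell further, by 0.30 per 24 h (adjusted p = 2.76e-14). The difference between the paralogs was not tested. Eif6, which keeps the large subunit from joining too early, had a slope of -0.05 ± 0.03 and did not pass.

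The calls held to unequal degrees across probe sets. Of the 16 genes that fell, 10 had another probe set above the median. In 6 of these another one fell as well and in 3 (Eif1ax, Eif2s2 and Eif4g2) another one rose, with Eif4g2 in both counts. In 4 of the 10 every other probe set had a slope of the same sign. Of the 6 genes that rose, 3 had another, and in 2 (Eif1a and Eif4ebp1) it rose too. The last array, hour 67, was the lowest of the course for 12 of the 45 genes above the median (26.7%) and for 9.44% of all probe sets above it. It was one of the 10 arrays of wide β-actin gap. Without it 18 genes fell, and Eif3d no longer passed (adjusted p = 0.0593). Without any 1 array, between 15 and 18 genes fell and 6 rose.

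The levels followed the β-actin gap in part. Between the 10 arrays of wide gap and the other 38, 13 of the 45 genes differed by more than 0.1 upward and 11 by more than 0.1 downward, 53.3% of the genes, against 68.3% of all probe sets above the median. The genes most displaced were Eif2b4, Eif4enif1, Eif4g3 and Eif2ak1 upward and Eif2ak2, Eif4a1 and Eif5a2 downward. Without these arrays 8 genes were higher in hours 44 to 67, against 5 with all arrays.

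Genes that work around the initiation factors were read from lists of the same kind. Of 12 initiation helpers outside the Eif symbols, 7 fell and none rose, among them Bzw2, an eIF5 mimic (slope -0.27 ± 0.02), and Pabpc1, the poly(A)-binding protein that closes the mRNA loop (-0.15 ± 0.02), and the median slope was -0.15. Of 14 regulators of initiation and elongation 6 rose and 3 fell. Gigyf2, a partner of Eif4e2, had a slope of 0.19 ± 0.02 and Paip2b, an inhibitor of the poly(A)-binding protein, one of -0.12 ± 0.02. The list mixes repressors and kinases with genes that counter eIF2 phosphorylation. Impact, Ppp1r15b and Dnajc3 are of the latter kind and were among those that rose (slopes 0.10, 0.08 and 0.11). Ppp1r15a, also of that kind, did not pass the trend test (slope 0.15, adjusted p = 0.377). Of 4 genes of polyamine synthesis and eIF5A hypusination, the modification that activates eIF5A, Odc1 (slope -0.28 ± 0.04) and Srm (-0.07 ± 0.03) fell and none rose.

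Of 12 genes of the ATF4 pathway, which is switched on when eIF2 is phosphorylated, 7 rose and 4 fell. Nupr1 had a slope of 1.07 ± 0.04 and Ddit3, which encodes the stress factor CHOP, one of 0.38 ± 0.03, while Atf3, a stress-induced repressor named here after its value was seen, had one of -0.95 ± 0.12. Of 16 mTORC1 pathway genes 3 rose and 3 fell, with Deptor, an inhibitor of the kinase, at 0.49 ± 0.04 and Rragc, a GTPase of its amino acid sensor, at 0.24 ± 0.02. Of 7 genes listed by their elongation factor (Eef) symbol, not by function, 2 fell (Eef1e1, -0.21 ± 0.02, and Eef2, -0.05 ± 0.01) and none rose. Of 9 termination and recycling genes 1 rose and 3 fell. Of 42 cytosolic ribosomal protein genes 14 fell and 3 rose, with a median slope of -0.01. All these counts are over the same limma fit and are read against 26.4% rising and 26.4% falling among probe sets above the median, where most of these genes lie, and 14.2% and 16.2% among all probe sets.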

How the data were processed

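The deposited values were linear intensities per probe set, which the authors had corrected for background and brought to a common scale. GCRMA is named for them in the study's methods, with MAS5 for present calls, whereas the submitters' processing notes name MAS5 alone. Their versions were not given in the sources used, and the scaling constant is unknown. Hours were taken from sample titles, since the treatment text gives hour 20 for every sample. Log2 was taken without an added constant, and 64 control probe sets were left out of tests. Levels of different probe sets were compared only to choose the brightest of a gene and to place means by rank or against the median.

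Each of 45037 probe sets was fitted in limma 3.58.1 (R 4.3.3) with cosine and sine terms of 24 h and a slope in hours. The window test replaced the slope by hours 44 to 67 minus hours 20 to 43, and a further test let the cosine differ between windows. All used Benjamini-Hochberg adjustment over all probe sets at 0.05. COSOPT itself was not run. Instead, cosines of 6 to 30 h were fitted to detrended series, with p from 2000000 Gaussian null series, beside Fisher's G-test and Storey q-values. Scripts were tested on simulated data (scipy 1.17.1, pandas 2.3.3 and numpy 2.4.6 under Python 3.11.15). The smallest p the null series allow is 5e-07, and the precision of a value is limited by the number of arrays.

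Gene symbols came from the platform annotation of 2016 for 34945 probe sets with 1 symbol, while 932 with several and 9160 with none were named nowhere. In each factor group up to 6 genes with the smallest p past the trend test were named. Every gene past a 24 h test, genes completing a complex and up to 2 genes of each other list were also named. Atf3, Impact, Ppp1r15a, Ppp1r15b and Dnajc3 were named outside this rule, with their values known. Members and lists were chosen with earlier results of these data known. Pairs and probe sets singled out in plots were picked after their values were seen. Promoters are RefSeq windows on GRCm38.p6. Other settings were quantile normalization, array medians set equal, probe sets above the median alone, the gap between β-actin 3′ and 5′ probe sets as a term or as a filter, a term for hours 52 to 55, omission of hour 27 or hours 20 to 25, averaged probe sets, 6 h means, hour of the cycle as a block, and omission of single arrays.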

Additional observations from a re-analysis of the deposited data

Results flagged for a closer look

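The 24 h cosine of 13 of the 47 genes differed between hours 44 to 67 and hours 20 to 43 by limma's interaction test, a test that 49.0% of all probe sets and 21.7% of those above the median passed. The adjusted p was 0.000919 for Eif2s3y, whose amplitude was 0.08 in hours 44 to 67 and 0.23 in hours 20 to 43. It was 0.00279 for Eif3e, 0.0334 for Eif3i, 0.0379 for Eif3l and 0.0449 for Eif3d among the eIF3 genes. For eIF2B it was 0.0208 for Eif2b1 and 0.0235 for Eif2b2. In the eIF4 group it was 0.00196 for Eif4h, 0.0381 for Eif4e and 0.0436 for Eif4e2, and it was 0.00196 for Eif4a3 and 0.00362 for Eif4e3, whose values were at the floor and whose amplitudes were at most 0.01. For Eif5a2, the only one of the 13 that passed the 24 h test, it was 0.0119. With a term for hours 52 to 55, the arrays of high BioB values, 1 of the 47 genes passed.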

How the results depend on the processing

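The count past the 24 h cosine test, 3 genes, was 1 with the β-actin gap as a further term and 1 without the arrays of wide β-actin gap, and 1 to 3 when single arrays were left out. Genes higher in hours 44 to 67, 5 in all, were 8 without the arrays of wide β-actin gap (5 to 6 without single arrays), and genes lower, 14 in all, were 8 without hours 20 to 25 (12 to 16). Genes that rose stayed at 6 and genes that fell were 15 to 18 when single arrays were left out. The count whose cosine differed between windows, 13, was 4 after quantile normalization, 1 with array medians set equal, 4 among probe sets above the median and 1 with a term for hours 52 to 55 (7 to 14 without single arrays, 8 without hour 52 and 7 without hour 54). Called by both rhythm tests at about 24 h was 0, but 3 where the G-test could peak at any period, 1 with probe sets averaged, 1 with the G-test on detrended series, a setting chosen after seeing the data, and 0 to 2 with each array in turn replaced by its neighbours' mean. At 12 and 8 h it was 0 throughout. With probe sets of a gene averaged the slope turned to 0.0337 for Eif4g2, 0.1001 for Eif2s2 and 0.0125 for Eif1ax, and the window difference to 0.0185 for Eif4g2 and 0.0733 for Eif2s2, none past the test. The Eif2s2 average includes a dim probe set whose lowest value, 5.59, was near the floor. Of the 22 slopes called, 9 kept their call and direction under every setting. With each hour of the second cycle paired with the hour 24 h before it, as a block, 5 genes were higher and 12 lower in hours 44 to 67. The cause of these changes was not tested.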
